A study of Mus musculus with 24 samples.

Results

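The replication-dependent histone genes encode the bulk of the proteins around which DNA is wound in nucleosomes, and they were examined here in RNA-seq data from the nucleus accumbens (NAc) of mice exposed to early-life stress (ELS). A gene was counted as a member when its GENCODE symbol began with Hist1h, Hist2h, Hist3h or Hist4h and its mean sense-strand count over the 24 libraries was at least 5. Of 52636 annotated genes, 70 carried such a symbol and 59 met the count minimum, and the mean counts of the other 11 were at most 3.13 (Hist1h1t, the testis linker histone), while the lowest member, Hist1h2ah, had 11.8. The study compared control (Con) mice, which were left with their mothers, with mice that were taken from their mothers for part of each day (the labels and the study's methods differ on how long) while the mothers met unpredictable stress (MSUS), from postnatal day 1 to day 14. All animals were C57BL/6 mice of 50 days, and there were 6 libraries in each of 4 groups, Con female, MSUS female, Con male and MSUS male. The tissue was a bilateral punch and not a sorted cell type, so fewer cells of a type and less RNA per cell cannot be told apart in any result. The labels do not give the litter of an animal, and p-values therefore describe the spread between these libraries.

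Histones H2A, H2B, H3 and H4 form the core of the nucleosome, and the linker histone H1 binds the DNA where it enters and leaves that core. The genes examined here are transcribed mainly while a cell copies its DNA. Their mRNAs have no introns and normally no poly(A) tail, and end instead just after a short hairpin, the histone stem-loop, which is bound by the stem-loop binding protein Slbp and sets where the transcript is cut and how long it lasts. Some of the same genes can also be read through the stem-loop into longer, polyadenylated transcripts in cells that no longer divide. Because the libraries were made by removing ribosomal RNA and not by selecting poly(A) tails, both forms could be sequenced.

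The 59 members comprised 5 H1, 14 H2A, 16 H2B, 11 H3 and 13 H4 genes. They lay in clusters, with 47 members in the Hist1 cluster on chromosome 13, 8 in Hist2 on chromosome 3, 3 in Hist3 on chromosome 11 and the single Hist4 gene on chromosome 6. One H2B member, Hist3h2bb-ps, is annotated as a pseudogene. Exons of 56 members formed 1 uninterrupted block, and the median exon length was 534 bases. In 39 of the 59 annotated models a script found the stem-loop, defined as 6 paired bases enclosing a 4-base loop in the stretch after the stop codon, whereas the remaining models mostly stopped before it. The most common form, shared by H1, H2A, H2B and H3 genes, was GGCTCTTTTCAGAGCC in 22 genes. All 11 stem-loops found in H4 genes had other stems, of which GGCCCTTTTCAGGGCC was the commonest with 7 genes. The following stem-loops, in capitals with 5 flanking bases on each side, come from members described below, written as DNA of the coding strand from GENCODE M21 transcripts (GRCm38).
Hist1h4d: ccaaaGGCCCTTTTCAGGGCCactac
Hist1h4f: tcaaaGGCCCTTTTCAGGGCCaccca
Hist2h4: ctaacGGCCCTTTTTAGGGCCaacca
Hist1h3f: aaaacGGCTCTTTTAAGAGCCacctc
Hist1h2bk: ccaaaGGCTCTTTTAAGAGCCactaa
Hist1h3b: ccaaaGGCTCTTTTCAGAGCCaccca

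In Hist1h4d (chr13:23581598-23582735, plus strand) the annotated exon ran on for 770 bases beyond the stem-loop, and in Hist1h3f (chr13:23544052-23545312, plus strand) for 365 bases. In Hist1h4f (chr13:23551258-23551648, minus strand), Hist1h2bk (chr13:22035870-22036345, plus strand) and Hist1h3b (chr13:23752267-23752886, plus strand) it ended 33, 30 and 51 bases after it. Models were therefore described as short when they held under 150 bases after the stop codon, which was so for 34 members, and as long otherwise, which was so for 24 (the pseudogene has no stop codon). That border was placed after the models and their values had been seen and is used only to describe them.

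Promoters of these genes hold a few recurring elements. They are described here by sequence only and were not compared with the measured values. The window from 250 bases before to 50 bases after the annotated start (RefSeq, GRCm38.p6) was available for 53 member genes with 54 starts. On either strand, the CCAAT box (CCAAT) occurred in 83.3% of member promoters and 37.4% of all 32851 promoters, the TATA box (TATAAA) in 59.3% and 13.6%, and the octamer bound by Oct1 (ATTTGCAT) in 22.2% and 1.74%. No motif contains another. All promoters of H1, H2A, H2B and H3 members held CCAAT, but 3 of 12 H4 promoters did. The octamer was found in 6 of 14 H2A and 6 of 14 H2B promoters and in none of the other classes. Below are an H1 promoter with CCAAT and TATAAA (Hist1h1b, chr13:21780576-21780875, minus strand), an H2B promoter with the octamer as well (Hist1h2bk, chr13:22035571-22035870, plus strand), and an H4 promoter with TATAAA alone (Hist1h4k, chr13:21750504-21750803, minus strand), with matches on either strand in capitals.
Hist1h1b: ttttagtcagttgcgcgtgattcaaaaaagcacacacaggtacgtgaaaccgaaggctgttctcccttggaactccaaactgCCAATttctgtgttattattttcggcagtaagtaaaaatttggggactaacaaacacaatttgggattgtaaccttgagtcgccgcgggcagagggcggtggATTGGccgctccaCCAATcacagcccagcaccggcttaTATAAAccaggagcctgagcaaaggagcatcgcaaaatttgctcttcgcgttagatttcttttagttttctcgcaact
Hist1h2bk: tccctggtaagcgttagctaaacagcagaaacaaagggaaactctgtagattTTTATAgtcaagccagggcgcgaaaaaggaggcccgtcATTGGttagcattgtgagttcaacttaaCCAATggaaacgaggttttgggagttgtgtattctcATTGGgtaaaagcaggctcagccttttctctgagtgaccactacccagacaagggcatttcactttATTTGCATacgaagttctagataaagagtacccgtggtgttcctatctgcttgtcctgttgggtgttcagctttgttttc
Hist1h4k: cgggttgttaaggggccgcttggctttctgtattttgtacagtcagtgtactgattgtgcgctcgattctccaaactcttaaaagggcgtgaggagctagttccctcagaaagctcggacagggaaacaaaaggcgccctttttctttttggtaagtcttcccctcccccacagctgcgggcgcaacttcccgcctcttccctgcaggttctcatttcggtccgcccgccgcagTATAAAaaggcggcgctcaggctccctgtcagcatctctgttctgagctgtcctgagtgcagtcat

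Summed sense counts per library ranged from 39923666 to 70575745. Members made up 0.0656% of them, and reads on the opposite strand were 1.67% of the reads at member genes. Markers of medium spiny neurons, the main neurons of the NAc, were present in every library (summed normalized counts between 100698 and 265175, none of the 10 genes at 0). Con female 2 stood apart among the Con female libraries: its summed member level was 48447.8 normalized counts (counts divided by a size factor for library depth), against 34021.5 to 38964.2 in the other five. The female comparison is therefore given with and without it. Pairs assigned to no gene made up 31.0 to 34.8% in Con female libraries and 36.3 to 43.9% in MSUS female libraries, so the female groups did not overlap in this measure. Copies of histone genes are nearly identical, and only uniquely mapped reads were counted. The share of 100-base windows of a member that occur nowhere else in the annotated transcripts had a median of 67.8% and lay under 50% for 19 members, whose values are less certain.

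H4 transcripts dominated. Although the NAc consists largely of cells that do not divide, H4 members held 51.4% of all member counts, followed by H1 with 17.8%, H2B with 14.96%, H3 with 8.72% and H2A with 7.18%. Per length, the median H4 member reached 26.7 CPM per kilobase (CPM, counts scaled to the library's total), compared with 10.5 for H1, 5.55 for H3, 4.90 for H2B and 3.34 for H2A. The highest levels per length were those of the H4 genes Hist1h4h (123), Hist1h4k (83.4), Hist1h4c (72.5) and Hist1h4d (69.5), and the highest outside H4 was that of Hist1h1c (29.7), which encodes the linker histone H1.2 common in differentiated cells. Classes overlapped widely, as the lowest H4 gene, Hist4h4, was at 3.26. Levels per length depend on the annotated model, however. Hist4h4 has 2863 bases of exon, 2515 of them after the stop codon, and a mean count of 498. Hist1h4n, with a mean count of 499 and 430 bases, reached 21.7. The median was 48.4 for short H4 models and 13.9 for long ones. Classes also differed in how much of a gene can be counted. The median share of unique 100-base windows was 99.2% for H1, 81.0% for H4, 70.9% for H2B, 57.1% for H3 and 42.0% for H2A. Shares and levels of classes are therefore not corrected for reads lost to near-identical copies.

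**Figure D1:**
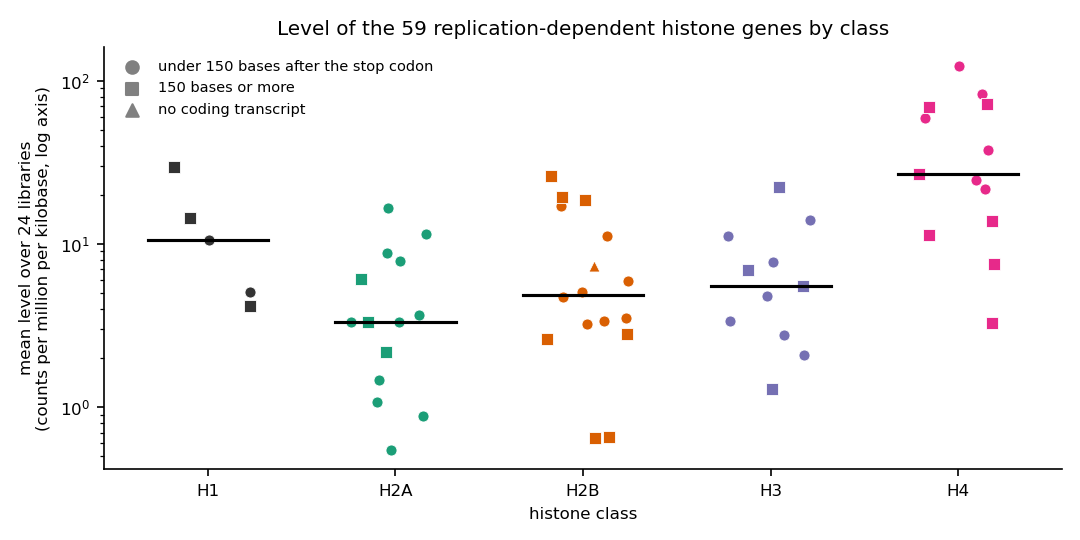
Each point is one of the 59 members, placed by its mean level over 24 libraries in CPM per kilobase of exon (log axis) and by histone class. Circles are models with under 150 bases after the stop codon, squares longer models, the triangle the pseudogene, and lines class medians, which run from 3.34 in H2A to 26.7 in H4.

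Members differed widely in how steady their levels were. Over all 24 libraries the standard deviation of log2(normalized count + 1) had a median of 0.25 among members and 0.20 among the 21500 genes tested. H4 genes were steady, with a median SD of 0.12 and at most 0.21. The 20 members with the largest SD belonged to H2A, H2B, H3 and H1, and 3 of them had long models, Hist1h2bh, Hist1h2bp and Hist1h2ae. The SD was not corrected for count level, and low counts widen it. Mean counts of H4 members ran from 310 to 4226, while some of those 20 were low, such as Hist1h2ah (11.8) and Hist1h2an (22.5). Hist1h3b, an H3 gene, ranged 39.0-fold from its lowest to its highest library, Hist1h3c 23.7-fold and Hist1h2af 29.4-fold (these were chosen after their values were seen). Con female 2 was the highest library for all 3 genes, and without it they ranged 17.8-fold, 9.87-fold and 13.6-fold. Within the short models the median SD was 0.53 for H3, 0.54 for H2B and 0.38 for H2A, but 0.13 for H4. Within the long models it was 0.22, 0.15, 0.21 and 0.11 in the same order. When Con female 2 was left out, the medians of the short models were 0.40, 0.39, 0.30 and 0.11, and the median over all members was 0.20, as over all genes.

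The members with a wide spread followed Mki67, which encodes the proliferation marker Ki-67. Spearman's rho with Mki67 over the 24 libraries was at least 0.80 for 15 of 59 members (25.4%), compared with 0.586% of all genes tested, and its median was 0.53 over members and −0.01 over all genes. When Con female 2 was left out, 14 members reached a rho of 0.80 and the median over members was 0.46. With all 24 libraries, class medians were 0.72 for H2B, 0.66 for H2A, 0.57 for H1, 0.54 for H3 and 0.15 for H4. Without Con female 2 they were 0.69, 0.61, 0.52, 0.48 and 0.05 in the same order. With all 24 libraries, 3 of 13 H4 genes reached a rho of 0.50 (23.1%), compared with 4.22% of all genes tested, and the highest H4 value was 0.68. The closest were Hist1h3c with a rho of 0.97, Hist1h2af with 0.96, Hist1h3b with 0.96 and Hist1h2bk with 0.96. These correlations are descriptions, since all points share the libraries and their composition.

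**Figure D2:**
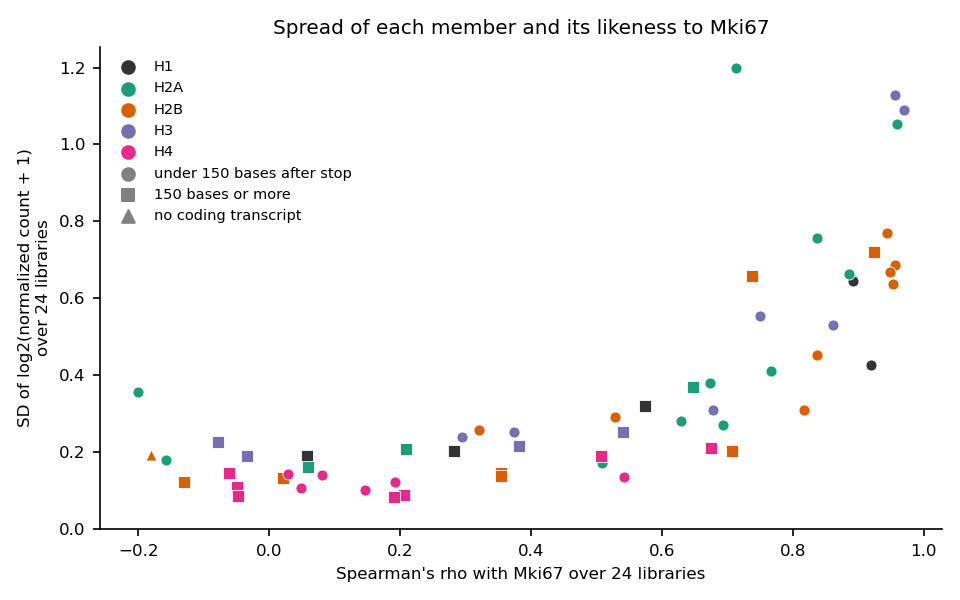
Each point is a member, placed by Spearman's rho of its level with Mki67 over 24 libraries (horizontal) and by the SD of its log2 level (vertical), with colour for class and shape for the length of the model. The H4 genes lie along the bottom with an SD of at most 0.21, and the members with the largest SD lie to the right.

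One member of each kind is described further, chosen with these correlations known, so that no test is given. Hist1h1b, the linker histone H1.5 of dividing cells, correlated with Mki67 over the 24 libraries with a Pearson r of 0.94 and a Spearman rho of 0.89. Without Con female 2 and MSUS male 4, the libraries farthest from the median of Mki67, r was 0.92. It was 0.93 within library numbers 1 to 12 and 0.94 within 13 to 24, and between 0.93 and 0.98 within the 4 groups. Hist1h4d, the most abundant member, gave an r of 0.30 and a rho of 0.21 over the same 24 libraries, and r was 0.13 without the same pair. Its r was 0.24 within library numbers 1 to 12 and 0.36 within 13 to 24. Within the groups it was 0.45 in Con females, 0.65 in Con males, −0.34 in MSUS females and −0.33 in MSUS males. The values for Mki67 itself ran from 147 to 1938 in Con females, 159 to 429 in MSUS females, 206 to 797 in Con males and 124 to 681 in MSUS males.

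**Figure D3:**
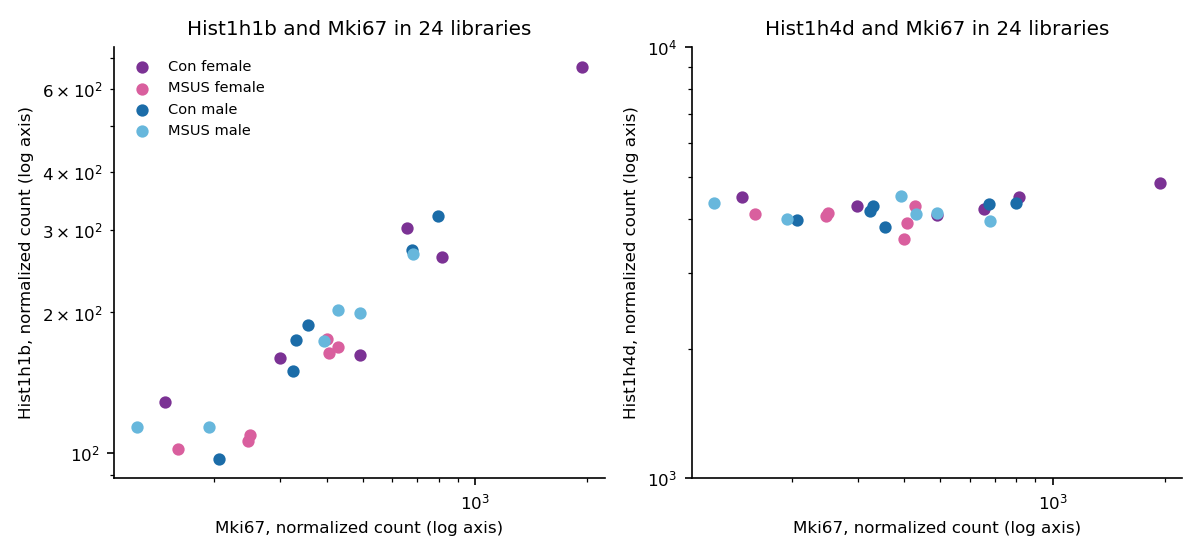
Normalized counts of Hist1h1b (left) and Hist1h4d (right) against those of Mki67 on log axes, with 1 point per library coloured by group. Hist1h1b climbs with Mki67 in every group, with Con female 2 at the top right (670 against 1938), while Hist1h4d stays between 3588 and 4840.

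The first comparison asked whether ELS altered histone mRNA in the female NAc. The members that passed the test all moved in one direction. Of the 59 members 58 passed the filter on low counts, and 17 of these 58 were lower in MSUS than in Con females, none was higher, and 56 of the 58 estimates were below 0. The 17 make up 29.3% of those tested, while 25.1% of all 20571 genes tested passed the same threshold (edgeR quasi-likelihood test, adjusted p under 0.10) and 11.9% passed it as lower in MSUS. By edgeR the share called was thus near that of all genes, whereas 0 of 17 calls against 2698 of 5156 were higher. An unadjusted p under 0.05 was found for 33 members (56.9%) and 32.7% of all genes, and DESeq2 called 29 of 59 members (49.2%) and 25.8% of all genes. The median log2 fold change was −0.29 over members and −0.003 over all genes. Hist1h2ah, an H2A gene, was too low to be tested.

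H4 genes gave small and similar estimates. Among 13 tested, 6 were called lower and all 13 estimates lay between −0.27 and −0.05, with a median of −0.13. Summed over the class, Con female libraries held 18234 to 21242 normalized counts and MSUS female libraries 16071 to 18151, without overlap. Hist1h4f had the smallest p of all members. It measured 1163 to 1485 normalized counts in Con females with a median of 1354, and 1110 to 1236 with a median of 1161 in MSUS females. Only Con female 3 lay within the MSUS range, and the log2 fold change was −0.20 (SE 0.05, adjusted p = 0.0262). Hist1h4k gave 1376 to 1797 with a median of 1468 in Con and 1227 to 1340 with a median of 1319 in MSUS. Its groups did not overlap and its log2 fold change was −0.22 (SE 0.06, adjusted p = 0.0355), although 35.7% of its 100-base windows are unique. Hist1h4c (3349 ± 134 against 3052 ± 161, SD, n = 6) did not overlap either, at −0.13 (SE 0.04, adjusted p = 0.05003). Hist1h4d, Hist1h4h and Hist1h4a were called too, at −0.13, −0.13 and −0.27, with adjusted p of 0.0947, 0.0577 and 0.0803. Hist2h4, also among the 12 most abundant members, gave −0.12 (adjusted p = 0.111).

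Among H3 genes, 4 of 11 were called lower and the median was −0.39. Hist1h3f showed 450 to 798 normalized counts with a median of 515 in Con females and 356 to 435 with a median of 398 in MSUS females. Every Con library was above every MSUS library, and the log2 fold change was −0.48 (SE 0.13, adjusted p = 0.0284). For Hist1h3d it was −0.35 (adjusted p = 0.0440), for Hist1h3i −0.39 (adjusted p = 0.0708) and for Hist1h3g −1.03 (adjusted p = 0.0498). Hist1h3g ranged from 51.2 to 196 in Con and from 31.5 to 55.1 in MSUS, and the second highest Con library was at 74.0, below Con female 2. The largest estimate of any member, −1.42 (SE 0.57) for Hist1h3b, was not called (adjusted p = 0.107), as its Con female values spread from 34.9 to 417. Hist1h3e, the most abundant H3 member, gave −0.17 (adjusted p = 0.237). In all, 3 members, Hist1h3f, Hist1h4c and Hist1h4k, had every MSUS female library below every Con female library, which was so for 3.41% of all genes tested, and none had the reverse.

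The H2B calls were 4 of 16 (median −0.38) and the H2A calls 2 of 13 (median −0.37). Hist1h2bk measured 45.7 to 320 with a median of 112 in Con females and 46.1 to 80.7 with a median of 64.0 in MSUS females, a log2 fold change of −1.07 (SE 0.40, adjusted p = 0.0864). The groups overlapped, with Con female 6 inside the MSUS range and Con female 5 just below it. Hist1h2bh (−1.13, adjusted p = 0.0736), Hist1h2bp (−0.95, adjusted p = 0.0786) and Hist2h2bb (−0.42, adjusted p = 0.0574) were the other H2B genes called. Of the abundant H2B members, Hist1h2bc gave −0.13 (adjusted p = 0.238) and Hist3h2ba −0.06 (adjusted p = 0.582). The H2A genes called were Hist2h2ac (−0.22, adjusted p = 0.0900), with 293 to 405 in Con and 267 to 310 in MSUS, and Hist1h2ag (−0.96, adjusted p = 0.0968), with 19.6 to 118 and 17.5 to 38.4. The estimates above 0 were those of Hist3h2a (0.14, adjusted p = 0.131) and Hist2h2be (0.02, adjusted p = 0.896), neither of them in the Hist1 cluster.

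Of the 5 H1 genes, Hist1h1b was called. It ranged from 129 to 670 with a median of 212 in Con females and from 102 to 176 with a median of 137 in MSUS females, and its log2 fold change was −1.03 (SE 0.39, adjusted p = 0.0904). Hist1h1e, which encodes H1.4 and overlaps Hist1h2be on the same strand, gave −0.42 (adjusted p = 0.104), Hist1h1c −0.24 (adjusted p = 0.141) and Hist1h1d −0.16 (adjusted p = 0.281).

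**Figure D4:**
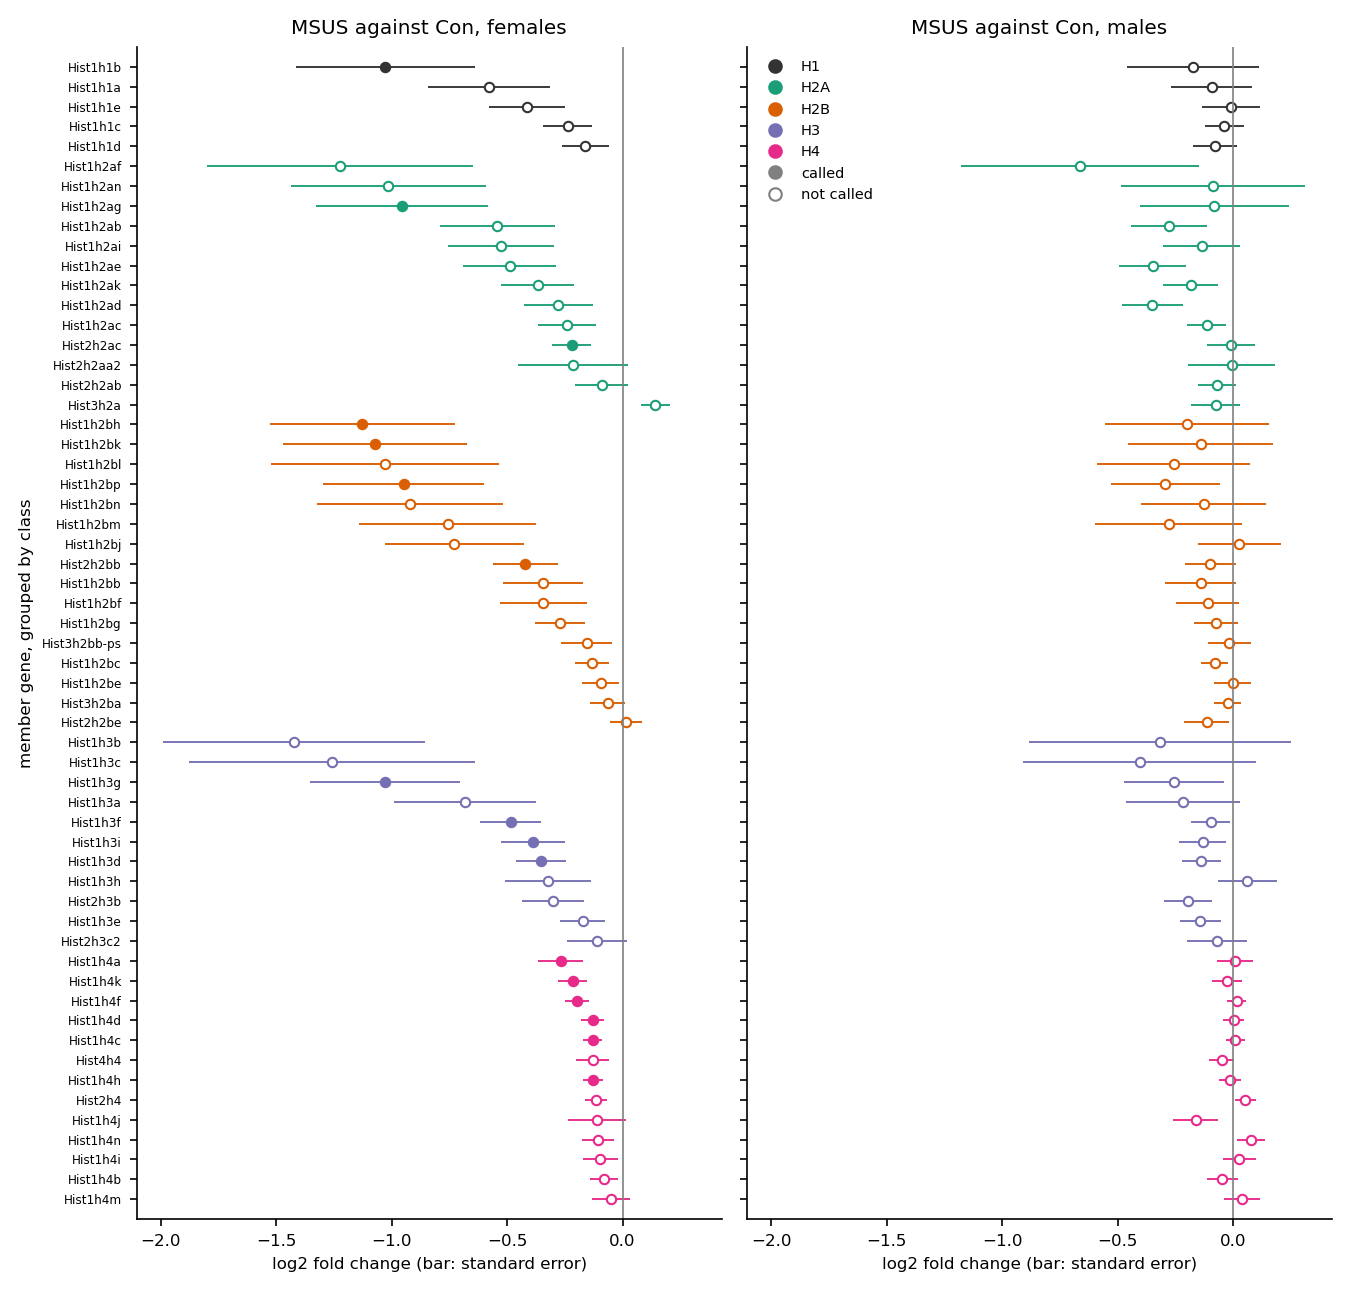
Log2 fold change of MSUS against Con for each member tested in females (left) and males (right), grouped by class and sorted by the female estimate. Bars are 1 standard error as derived from the F statistic. Filled points are called at an adjusted p under 0.10: 17 in females, all below 0, and 0 in males.

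By length of the annotated model, 10 of 33 short models and 7 of 24 long ones were called lower, with medians of −0.42 and −0.15. Summed over all members, Con females reached 37988 ± 5386 normalized counts against 32621 ± 1547 for MSUS females. The male sums were 34731 ± 2800 for Con and 33774 ± 1558 for MSUS (SD, n = 6 in each group). Con female values started at 34022 and MSUS female values ended at 34480, so these ranges overlapped slightly. The Con female mean without Con female 2 was 35896 ± 1854 (SD, n = 5).

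The size of these differences depended on Con female 2. Without it, 7 members were called and the median moved from −0.29 to −0.16, with 55 of 58 estimates still below 0. The 7 make up 12.1% of the members tested, while 19.7% of all genes were called without this library and 8.79% were called as lower in MSUS. Those 7 were among the 17 and were Hist1h3f (−0.35), Hist1h4k (−0.16), Hist1h3g (−0.60), Hist1h4f (−0.16), Hist1h3d (−0.24), Hist1h3i (−0.23) and Hist1h4c (−0.11), so that no H1, H2A or H2B member remained, and Hist1h1b gave −0.55 (adjusted p = 0.156). The medians of short and long models were then −0.23 and −0.10. Leaving out other libraries gave 5 calls (MSUS female 2) to 32 (Con female 5). Counts also fell to 6 without Con female 1 or MSUS female 3 and to 9, 10 and 11 without MSUS female 6, 4 and 5, and rose to 28 without Con female 6. Within library numbers 1 to 12 alone (3 against 3) the median was −0.20 and within 13 to 24 it was −0.30, with 0 called by edgeR in either and 7 and 4 at an unadjusted p under 0.05. With the share of unassigned pairs as a covariate, no member was called (edgeR, 0 of 58, 3 at an unadjusted p under 0.05). The median was −0.24 over members and −0.008 over all genes. The female groups did not overlap in this share, so that fit cannot tell it apart from group. With splice events per mapped pair as a covariate, no member was called either. The median was 0.02 over members and −0.007 over all genes, and this measure is not given by group here. The share of all genes called is not given for these fits, the library-number fits or the other leave-one-out fits. Their counts therefore describe the members alone.

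Other genes were described from lists to show what moved alongside. Of 23 S phase and proliferation genes, 3 were called lower in MSUS females and none higher, with a median of −0.43. They were E2f1, a transcription factor that starts S phase (−0.48, adjusted p = 0.0483), Pcna, the sliding clamp of DNA polymerase (−0.17, adjusted p = 0.0682), and Cdk1, the mitotic kinase (−1.08, adjusted p = 0.0814). Mki67 gave −1.20 (adjusted p = 0.144). The summed level of this list was 5036 to 11758 in Con females, 5070 to 5984 in MSUS females, 4990 to 7853 in Con males and 4624 to 6855 in MSUS males. Without Con female 2, 1 of the 23 was called (4.35%), below both shares of all genes, and the median was −0.23. The part that dividing cells had in the histone differences was not tested.

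Replication-independent histone genes are mostly spliced and polyadenylated and are used outside S phase. Of 11, 7 were called lower in MSUS females (3 without Con female 2), with a median of −0.16. The 4 with the smallest p were H1fx, the linker histone H1.10 (−0.29, adjusted p = 0.00879), H2afy2, macroH2A2 (−0.16, adjusted p = 0.0351), H1f0, the linker histone of resting cells (−0.35, adjusted p = 0.0408), and H2afz, H2A.Z (−0.16, adjusted p = 0.0637). By contrast, 1 of 14 factors that transcribe, process or degrade histone mRNA was called, Cpsf2, a subunit of the cleavage complex (−0.11, adjusted p = 0.0961), with a list median of 0.00. It was called without Con female 2 as well (−0.13, adjusted p = 0.0507). Of 16 histone chaperones, 1 was called lower, Nap1l4 (−0.10, adjusted p = 0.0818), with a median of −0.04, and none was called without Con female 2 (edgeR, 1 at an unadjusted p under 0.05, Nap1l4 at an adjusted p of 0.140).

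Cell type markers were described in the same way, against the same shares of all genes. In females, 4 of 6 oligodendrocyte markers were called lower, namely Mag (−0.28), Mbp (−0.30), Mog (−0.25) and Mobp (−0.30), with a summed level of 197695 to 301631 in Con and 180783 to 221961 in MSUS. In the fit without Con female 2, 3 of these 4 were called and Mobp was not (−0.26, adjusted p = 0.163). Of 5 markers of neuroblasts and progenitors of the subventricular zone, which borders the NAc, 1 was called lower, the transcription factor Dlx2 (−0.58, adjusted p = 0.0690). The median of these 5 was −0.04 and their sums ran from 9363 to 14939 in Con and from 9622 to 12049 in MSUS females. In the fit without Con female 2, Dlx2 was still called (−0.37, adjusted p = 0.0827), the median was 0.01 and 3 of the 5 estimates were above 0. Of 6 cortical excitatory neuron markers Emx1 was called (−1.82), the list median was −1.83, and the sums ran from 7314 to 77892 in Con and from 461 to 31730 in MSUS females. No cortical marker was called without Con female 2 (edgeR, 1 of 6 at an unadjusted p under 0.05), with Emx1 at −1.73 (adjusted p = 0.153) and a list median of −1.69. In the male groups the cortical sums were 2001 to 52464 and 2255 to 77603. Astrocyte markers had 2 of 6 called lower, Aldoc (−0.16) and Aldh1l1 (−0.11), with sums of 60492 to 64472 and 56258 to 61601, and Aldoc alone was called without Con female 2 (−0.13, adjusted p = 0.0969). No gene was called among 10 medium spiny neuron, 5 oligodendrocyte precursor, 6 microglia, 5 endothelial or 4 tested ependymal markers (edgeR, unadjusted p under 0.05 for 0, 0, 1, 2 and 0 of them). Without Con female 2, however, 2 of the 5 endothelial markers were called lower, the adhesion molecule Pecam1 (−0.13, adjusted p = 0.0460) and the tight junction protein Cldn5 (−0.15, adjusted p = 0.0751). No listed marker was at 0 in all libraries, and the part of these cells in the histone differences was not tested.

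In males no member was called (0 of 58, with 2 at an unadjusted p under 0.05 by edgeR and 0 called by DESeq2). Of all 20691 genes 0% passed by edgeR and 0.923% had an unadjusted p under 0.05, and DESeq2 called 0% as well. The median log2 fold change was −0.09 over members, and 48 of the 58 estimates were below 0. The smallest p belonged to Hist1h2ad, an H2A gene, with 87.1 to 124 in Con males and 63.1 to 102 in MSUS males, a log2 fold change of −0.35 (SE 0.13, adjusted p = 1.00). The groups overlapped. Over H4 genes the median was 0.01. Hist1h4f ranged from 1123 to 1285 in Con males and from 1165 to 1288 in MSUS males (0.02, SE 0.04), and Hist1h3f from 409 to 534 and from 385 to 488 (−0.10, SE 0.09). Hist1h1b ranged from 97.4 to 321 and from 114 to 266 (−0.17, SE 0.28).

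**Figure D5:**
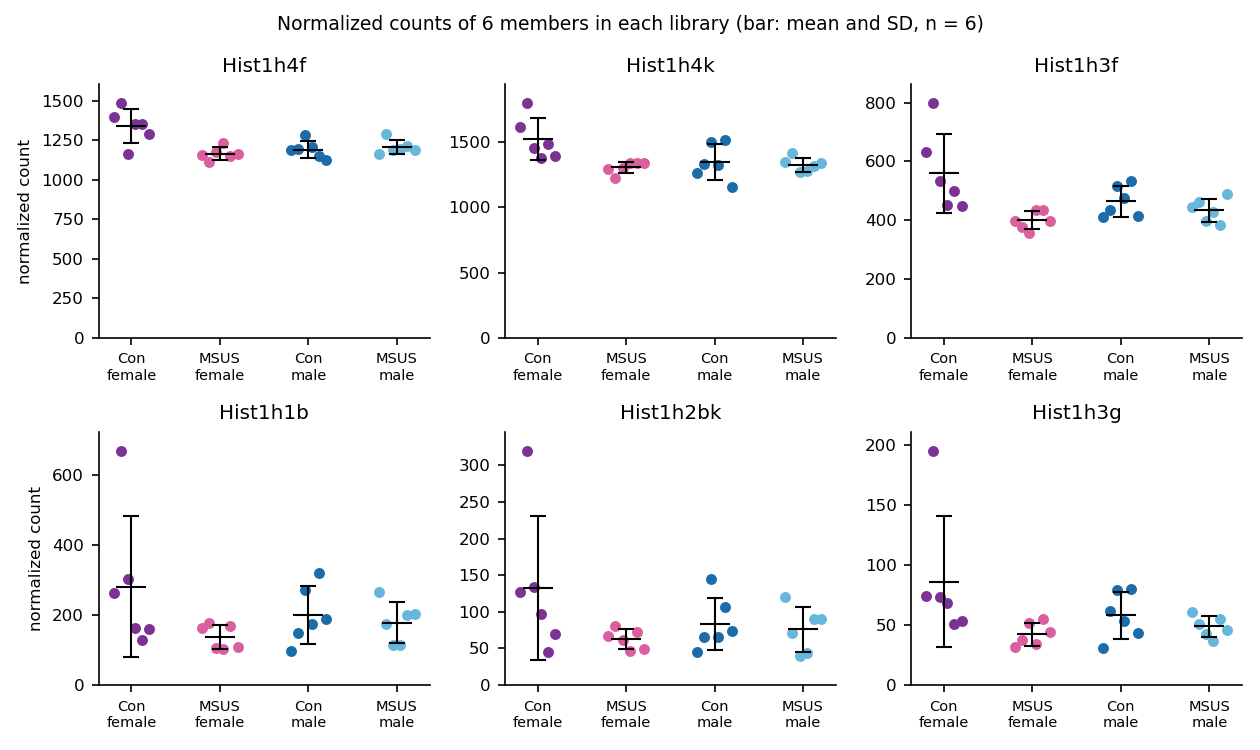
Normalized counts of 6 members called in females, 1 point per library in order of replicate number, with the mean and SD of each group (n = 6). For Hist1h3f and Hist1h4k all MSUS female points lie below all Con female points, and for Hist1h1b, Hist1h2bk and Hist1h3g Con female 2 is the highest point of the panel.

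Females and males were then compared within each condition. These comparisons reuse the same Con and MSUS libraries and so are not independent of those above. Between Con females and Con males, 0 of 59 members were called by edgeR, where 2.64% of all genes passed. An unadjusted p under 0.05 was found for 13 of 59 members and 17.8% of all genes. DESeq2 called 4 members (6.78%) and 7.04% of all genes, so both shares of members were near those of all genes. Estimates were higher in females for 50 of 59 members, with a median of 0.22, and without Con female 2 the median was 0.07. Of the 13 nominal results 9 were H4 genes, and all 13 H4 estimates were above 0, from 0.09 upward. Hist1h4h had the smallest p. It measured 3139 to 3530 with a median of 3333 in Con females and 2707 to 3253 with a median of 2876 in Con males, with a log2 fold change of 0.19 (SE 0.05, adjusted p = 0.101). The members called by DESeq2 were Hist1h4c, Hist1h4f, Hist1h4h and Hist1h4n.

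Between MSUS females and MSUS males, 0 of 58 members were called by edgeR, where 0.135% of all genes passed. An unadjusted p under 0.05 was found for 6 members and 7.29% of all genes, and DESeq2 called 1 member and 0.782% of all genes. The median was −0.03. Hist1h1e had the smallest p, with 960 to 1368 normalized counts in MSUS females, a median of 1135, and 1283 to 1938 with a median of 1598 in MSUS males. Its log2 fold change was −0.46 (SE 0.11, adjusted p = 0.241), and it was the member called by DESeq2. All 5 H1 estimates were lower in females, between −0.46 and −0.13.

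The group-by-sex interaction asked whether the response to ELS differed between the sexes. No member passed by edgeR (0 of 59), and 0% of all 21500 genes did. An unadjusted p under 0.05 was found for 9 members (15.3%) and 18.7% of all genes, and DESeq2 called 1 member and 2.22% of all genes. The median interaction term (the log2 fold change of MSUS over Con in females less that in males) was −0.22 over members, with 55 of 59 below 0, and it was −0.11 without Con female 2. The smallest p was that of Hist1h4f, with a term of −0.22 (SE 0.07, adjusted p = 0.200), and it was the gene called by DESeq2. By edgeR, the 17 calls in females and 0 in males thus stand beside 0 calls for the difference between the sexes itself. Without MSUS male 1, edgeR called 2 members for this difference, Hist1h4f and Hist2h4. The other 23 fits that each left out 1 library called 0 members. The share of all genes called without MSUS male 1 is not given, so that count describes the members alone.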

How the data were processed

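RNA-seq was done on bilateral punches of the NAc from 24 mice at 50 days of age, 6 each of Con female, MSUS female, Con male and MSUS male. Per the labels, ribosomal RNA was removed with the KAPA RiboErase kit before stranded library preparation. The authors aligned 100 bp pairs to mm10 with STAR 2.6.1b (the submitters' notes also name CASAVA 1.8, HTSeq and DESeq2) and GENCODE M15, and deposited STAR's raw gene counts, 3 columns per library, not normalized, in which a pair is counted if it maps to 1 place. The sense-strand column was used. Pairs that map to several places equally well are not in these counts, which lowers the counts of nearly identical histone genes. Genes were matched to GENCODE M21 (52489 of 52636 identifiers), and summed counts per library ranged from 39923666 to 70575745. The lowest chi-square per gene between any pair of libraries of a group was 6.34, so none was a copy of another.

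Genes were filtered with edgeR 4.0.16 (filterByExpr, minimum count 10), normalized by TMM and tested with the robust quasi-likelihood F test in R 4.3.3. The Benjamini-Hochberg adjustment ran over all genes tested, and genes with an adjusted p under 0.10 were called. The 5 comparisons were MSUS with Con in each sex, females with males in each condition, and the interaction. Estrous stage, which the study's model held for females, was left out because the labels give stages to males and lack them for some females. Each SE given for a fold change is the absolute log2 fold change over the square root of its F statistic, not a fitted standard error. Printed levels are counts over DESeq2 1.42.0 size factors. The rest was done in Python 3.11.15 (matplotlib 3.10.9, scipy 1.17.1, pandas 2.3.3, numpy 2.4.6), and the test was checked on simulated data.

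The members and gene lists were chosen with earlier results of these data known. The members named are the 12 with the highest mean normalized count, all called in any comparison, and the one with the smallest p in each, and from every other list at most 4 called genes. The alternatives were DESeq2, its size factors, other count filters, unstranded counts, a replicate block, library set, spliced share (splice events per mapped pair, used as a covariate from the study's library metrics) and unassigned share as covariates, offsets for GC content and length, a joint fit, a threshold of 0.05 and leaving out each library. Fits within library numbers 1 to 12 and 13 to 24 were added after the data had been seen. One gene of the marker lists is not reported here, and its list was counted without it.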

Additional observations from a re-analysis of the deposited data

Results flagged for a closer look

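Of 124 sets of 6 values examined (25 named members and 6 sums in 4 groups), 18 held a library farther from its nearest neighbour than Dixon's 95% limit of 0.625 of the range, where chance flags about 5%. Con female 2 accounted for 14 of the 18, each time as the highest library. In normalized counts its summed level was 48447.8 over all members (34021.5 to 38964.2 in the others), 9169 over H1, 4024 over H2A, 8322 over H2B and 5691 over H3 members, and the H4 sum was not among those that stood apart. Single members high in Con female 2 were Hist1h1c (3332), Hist2h4 (1170), Hist1h3d (588.9), Hist1h3i (543.8), Hist1h1b (670.4), Hist1h2ad (174.5), Hist1h2bk (320.3), Hist1h3g (195.6) and Hist1h2bh (206.2). The same library had the highest Mki67 (1938) and Top2a (1371) of all 24, and the female comparison without it is given above. The remaining 4 were Hist2h4 in Con male 4 (1036.8, others 914.2 to 929.4), Hist3h2ba in Con male 2 (1002.2, others 837.6 to 890.9), Hist3h2ba in Con female 3 (673.1, others 853.5 to 911.9) and the H2A sum in MSUS female 3 (2217, others 2358 to 2398).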

How the results depend on the processing

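In females, where 17 members were called, the count was 29 with DESeq2, 18 with its size factors in edgeR, 9 without a filter, 16 with at least 10 counts in every library, 20 without regard to strand, 13 with library set as covariate, 32 with offsets for GC content and length, 20 with those and the replicate block, 24 in one fit of all libraries, 5 at a threshold of 0.05, 0 with spliced share or unassigned share as covariate and 0 within library numbers 1 to 12 or 13 to 24 alone. All of these calls were lower in MSUS. The fit without regard to strand held 53 members and not 58. In those counts Hist2h3b (mean sense count 290) and Hist2h2bb (120) were at 0. Of these alternatives, the share of all genes called is given above only for DESeq2, so the other counts describe the members alone. Leaving out each library gave 5 to 32. With replicate number as a block the count was 9, of which 7 were among the 17. Same-numbered libraries of the female groups were not shown to be paired, as their correlations ran from −0.40 to 0.43 and 1 of 6 Con libraries correlated best with its own number. In males every alternative gave 0. Between Con females and males DESeq2 called 4, unstranded counts 5 and the GC and length offsets 9, all H4 genes higher in females. The DESeq2 calls were 6.78% of members, near the 7.04% of all genes. Leaving out each library gave 0 to 1. Between MSUS females and males DESeq2 called 1, and for the interaction DESeq2 called 1 and leaving out each library gave 0 to 2. In the sex comparisons and the interaction too, the share of all genes called by an alternative is given only for DESeq2. The other counts there describe the members alone. Of the 58 members tested in females, 56 had estimates below 0 in the main fit. With the spliced share as covariate 28 did, and with the unassigned share 48 did. Among the named members alone, direction reversed in females with the spliced share for Hist1h4c (0.025), Hist1h4h (0.039), Hist1h1c (0.17), Hist1h1d (0.27), Hist1h2bc (0.23), Hist1h3e (0.13), Hist2h4 (0.043), Hist3h2ba (0.022), Hist1h4a (0.050), Hist1h3d (0.047) and Hist1h3i (0.028). With the unassigned share it reversed for Hist1h4h (0.012), Hist1h1d (0.066) and Hist1h2bc (0.060). None of these named members was called in those fits. The female groups did not overlap in unassigned share, so that fit cannot tell the share apart from group. The cause of these shifts was not tested. Summed member levels in MSUS females and MSUS males moved by more than their SD without regard to strand, to 30664 and 31921. With 6 libraries a group, low members such as Hist1h2bp limit the precision.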
